A study of Mus musculus with 6 samples.

Results

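The cytosolic heat shock proteins and their co-chaperones were compared between mammary tumors with and without JAM-A, the junctional adhesion molecule encoded by F11r. The set was named gene by gene and holds 10 members, namely Hspa1a, Hspa1b, Hspa8, Hsp90aa1, Hspb1, Hsph1, Dnajb1, Bag3, Cryab and Hsf1. Each was followed on 1 probe set, the one of highest mean over the 6 arrays among those that the platform annotation pairs with exactly 1 gene symbol. Such a probe set was found for 8 of the 10, out of 19938 genes measured in this way. Hspa1b and Hsf1 had none. Hspa1b is covered by a probe set that it shares with Hspa1a, which is described beside the members and left out of their counts, and Hsf1 was not analysed here.

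The study compared 3 JAM-A-/- tumors (numbers 5333, 5346 and 5347) with 3 JAM-A+/+ tumors (numbers 5369, 5370 and 5393), all resected from mice at an early stage of tumor development. All 6 tumors arose in mice that carried the polyoma virus middle T oncogene (MMTV-PyMT, or PyVmT), which the MMTV promoter drives in the mammary epithelium. JAM-A was absent from the whole mouse and not from the tumor cells alone, and the study names JAM-A+/+ littermates as controls. The readout was RNA on Affymetrix Mouse Gene 1.0 ST arrays, with 1 array per tumor. The labels give no age, litter or batch for an array and do not tie each tumor to its own mouse. The p-values therefore cover no more than the spread among these 6 tumors, which may be technical.

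Heat shock proteins are chaperones that bind unfolded proteins, keep them from clumping and help them to refold. Hsp70 proteins work in a cycle of ATP hydrolysis that J-domain proteins start and nucleotide exchange factors such as Hsp110 and Bag proteins end, and clients that need more help are passed on to Hsp90. Under heat, oxidative or proteotoxic stress the transcription factor Hsf1 binds heat shock elements, inverted repeats of the unit GAA, and induces many of these genes. Tumor cells often contain high levels of them, and oncogenic kinases are among the clients of Hsp90.

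Values are RMA expression on the log2 scale, in which background-corrected and normalized probes are summarised into 1 value per probe set. Differences are log2 fold changes, JAM-A-/- minus JAM-A+/+, from a limma fit over all 35557 probe sets, with 95% intervals and Benjamini-Hochberg adjusted p-values from that fit. The signature criteria were a difference of 1.3-fold or more either way with an unadjusted p under 0.05, limits that all entries of the study's own signature table respect. F11r was 5.91, 5.55 and 6.53 in JAM-A-/- tumors and 10.10, 10.23 and 10.47 in JAM-A+/+ tumors, in accord with the genotype labels. The median of all genes differed by 0.09 and 71.8% of genes lay above 0. Quantile normalization over the annotated probe sets alone brought this to a median of 0.0022 and 50.6%, with higher calls making up 54.2% of all genes meeting the criteria, where the deposited values gave 88.9%. Krt18, a keratin of luminal mammary epithelium, was 11.66, 12.27 and 12.34 in JAM-A-/- tumors and 11.56, 11.74 and 11.96 in JAM-A+/+ tumors. Its log2 fold change was 0.34, while the 8 luminal markers followed here ran from -0.24 to 0.41 with a median of 0.165. In whole tumors, fewer cells of a type and less RNA per cell cannot be told apart.

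All 8 measured members had a higher mean in JAM-A-/- tumors, as did 71.8% of all genes. The log2 fold changes of the members lay between 0.05 and 0.47, and their median was 0.34, against 0.09 over all genes. Hsph1 and Bag3 met the signature criteria higher and none met them lower, where 4.73% of all genes met them higher and 0.592% lower. No member had an adjusted p under 0.05 in limma (0.00502% of genes did, which is F11r alone), and 2 had an unadjusted p under 0.05, as did 8.16% of all genes. The groups did not overlap for 1 member, Hsph1, where JAM-A-/- tumors were higher without overlap for 12.4% of all genes and lower for 2.55%. With quantile normalization over the annotated probe sets the median of the members was 0.21, against 0.0022 over all genes. In that setting 6 of 8 lay above 0, where 50.6% of all genes did. None met the criteria, where 1.8% of all genes met them higher and 1.52% lower.

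**Figure D1:**
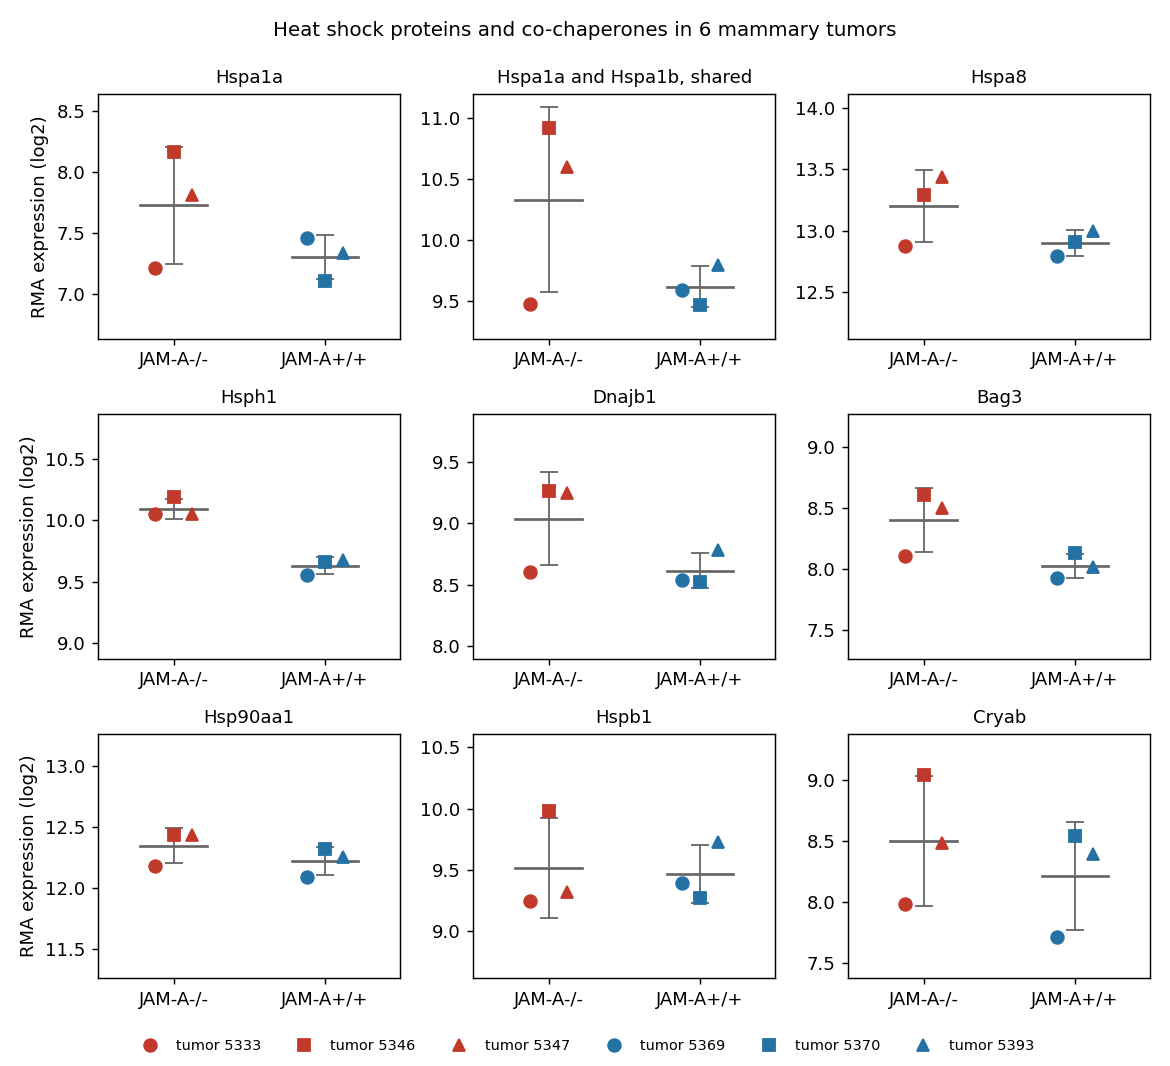
Expression (vertical axis, RMA values in log2 units, 2 units high in each panel) of 8 members and of the probe set shared by Hspa1a and Hspa1b, in 3 JAM-A-/- tumors (red, left) and 3 JAM-A+/+ tumors (blue, right). Each symbol is 1 tumor, horizontal lines are group means and bars are 1 SD. The 3 red symbols of Hsph1 all lie above the blue ones, while for Hspa1a, Hspa8 and Dnajb1 tumor 5333 lies among the JAM-A+/+ tumors and tumors 5346 and 5347 above them.

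The tumors of the JAM-A-/- group did not move together. Tumor 5346 exceeded all 3 JAM-A+/+ tumors in 8 of 8 members and tumor 5347 in 6 of 8, but tumor 5333 did so in 1, Hsph1. Over all genes these shares were 41.4% for tumor 5346, 56.7% for tumor 5347 and 28.0% for tumor 5333. The mean deviation of the 8 members from their own means over the 6 tumors was -0.17 in tumor 5333, 0.42 in tumor 5346 and 0.21 in tumor 5347, and -0.27, -0.14 and -0.05 in JAM-A+/+ tumors 5369, 5370 and 5393. Tumor 5333 had the lowest mean of the members in its group, so leaving it out could only raise their mean difference. Leaving out any 1 of the other tumors left 1 member meeting the criteria, with medians of 0.23 to 0.38. Without tumor 5333 the median of the members was 0.51, and 5 of them met the criteria, where 10.1% of all genes did so higher. They were Hspa1a, Hspa8, Hsph1, Dnajb1 and Bag3, while Hsp90aa1, Hspb1 and Cryab did not meet the criteria in that setting either. Among related genes without tumor 5333, 3 of 9 Hsp90 co-chaperones and 2 of 7 relatives of Hsp70 and Hsp110 met them higher. Without tumor 5333, too, none of the 8 members had an adjusted p under 0.05 in limma.

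Hspa1a encodes the stress-inducible Hsp70, which is scarce in most resting cells and is made in large amounts after heat shock. It was 7.21, 8.16 and 7.81 in JAM-A-/- tumors and 7.46, 7.11 and 7.34 in JAM-A+/+ tumors, so that 2 JAM-A-/- tumors lay above the JAM-A+/+ range and 1 within it. The log2 fold change was 0.42 (95% interval -0.13 to 0.97, adjusted p = 0.536 from limma), and 0.68 without tumor 5333 (0.28 to 1.09, adjusted p = 0.189). Leaving out tumor 5346, the highest on Hspa1a, gave 0.21 instead. The probe set shared by Hspa1a and its near-identical neighbor Hspa1b showed the same order of tumors within JAM-A-/-, at 9.48, 10.92 and 10.60, against 9.59, 9.47 and 9.80 in JAM-A+/+ tumors. Its log2 fold change was 0.71, or 1.64-fold (95% interval -0.07 to 1.5, adjusted p = 0.49 from limma). Tumors 5346 and 5347 averaged 1.28 above tumor 5333 on this probe set, while the JAM-A+/+ tumors spanned 0.33. Without tumor 5333, the lowest JAM-A-/- tumor on this probe set, the log2 fold change was 1.14 (95% interval 0.75 to 1.53, adjusted p = 0.0907).

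The regions before the start sites of Hspa1a and Hspa1b are printed because their shared probe set had a larger difference than any member, and because the sequences show how close the genes are. They come from RefSeq (GRCm38.p6, minus strand of chromosome 17, chr17:34972157-34972406 and chr17:34959239-34959488), 250 bases each, 5′ to 3′ and ending 1 base before the start site. Capitals mark the GAA and TTC units of a heat shock element pair.
Hspa1a: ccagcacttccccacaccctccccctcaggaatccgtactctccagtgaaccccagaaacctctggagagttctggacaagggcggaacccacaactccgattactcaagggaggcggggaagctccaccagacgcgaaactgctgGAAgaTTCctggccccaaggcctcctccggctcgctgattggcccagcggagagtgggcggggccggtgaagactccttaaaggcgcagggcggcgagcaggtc
Hspa1b: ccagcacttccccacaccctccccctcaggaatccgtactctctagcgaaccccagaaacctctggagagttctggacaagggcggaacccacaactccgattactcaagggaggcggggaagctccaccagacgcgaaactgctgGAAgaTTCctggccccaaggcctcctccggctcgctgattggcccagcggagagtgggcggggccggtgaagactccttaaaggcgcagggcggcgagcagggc
The 2 regions differed at 3 of 250 bases. Each held 1 head-to-head pair, GAANNTTC, at positions -104 to -97 counted from the start site.

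Both orientations of the pair were searched in the 300-base RefSeq windows, head to head (GAANNTTC) and tail to tail (TTCNNGAA). Each reads the same on both strands, and they can overlap by 3 bases in a run of 3 units. Of 32851 windows in RefSeq, 15.1% held at least 1 pair and 0.603% held 3 joined units. Windows were found for 6 of the 10 members (Hspa1a, Hspa1b, Hspb1, Hsph1, Bag3 and Dnajb1), but not for Hspa8, Hsp90aa1, Cryab and Hsf1. These 6 members had 8 windows, of which 6 held a pair, although Hspa1a and Hspa1b are near-identical and the 2 windows of Hsph1 overlap. Hspb1, which encodes the small heat shock protein Hsp25, held 2 head-to-head pairs. Hsph1 held 1 tail-to-tail pair before the start site of its window and 3 joined units in the 50 bases after it. The annotated Hsph1 gene reaches further upstream, to chr5:149636498, so this tail-to-tail pair lies within the gene. Bag3 held 1 head-to-head pair after the start site, and Dnajb1 held none in either of its 2 windows. The Hspb1 region lies at chr5:135887669-135887918 (plus strand), and the Hsph1 pair is shown in 30 bases at chr5:149636351-149636380 (minus strand), with capitals as above. They are shown because Hspb1 had the smallest difference of the 8 members and Hsph1 the largest.
Hspb1: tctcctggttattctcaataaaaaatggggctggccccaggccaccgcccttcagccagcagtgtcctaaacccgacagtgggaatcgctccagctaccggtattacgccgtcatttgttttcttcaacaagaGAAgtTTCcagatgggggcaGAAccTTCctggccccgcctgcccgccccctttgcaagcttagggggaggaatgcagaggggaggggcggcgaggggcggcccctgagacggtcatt
Hsph1: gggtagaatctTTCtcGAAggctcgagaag
The printed pairs are head to head in Hspb1 and tail to tail in Hsph1. Whether such pairs go with the differences was not tested.

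**Figure D2:**
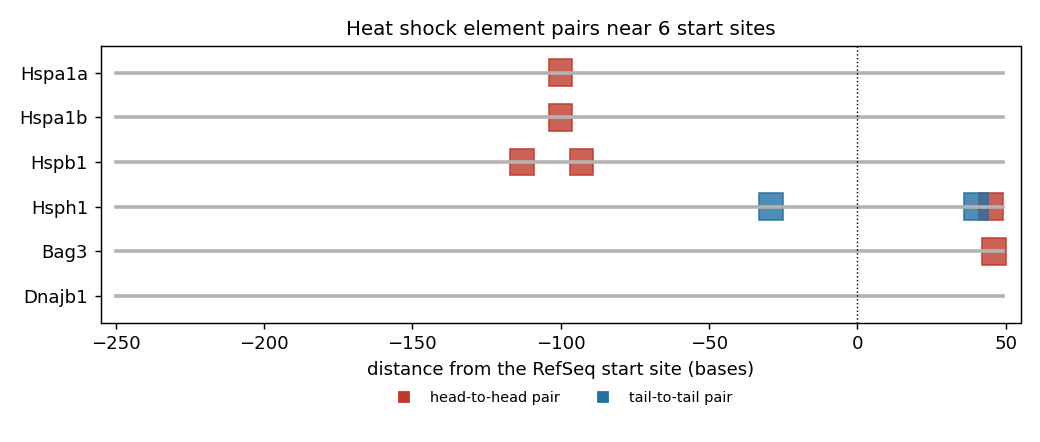
Heat shock element pairs in the RefSeq windows of 6 members, from 250 bases before to 49 bases after the start site of the window (horizontal axis, distance in bases). Red boxes are head-to-head pairs and blue boxes tail-to-tail pairs, 1 window per gene. Hspa1a and Hspa1b have their pair at the same place, -104 to -97, and Dnajb1 has none.

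Hspa8 encodes the constitutive Hsp70, Hsc70, which folds newly made proteins in unstressed cells. It was 12.87, 13.29 and 13.44 in JAM-A-/- tumors and 12.79, 12.91 and 13.00 in JAM-A+/+ tumors. Tumor 5333 again lay inside the JAM-A+/+ range and the other JAM-A-/- tumors above it. The log2 fold change was 0.30 (95% interval -0.09 to 0.69, adjusted p = 0.532 from limma). Of the other probe sets with this symbol alone, 1 followed it within 0.02 on every array and gave 0.29, and the other gave 0.21. Probe sets so alike may share probes or read copies of the gene, so their agreement is not independent. With quantile normalization over the annotated probe sets the difference was 0.09. The 2 probe sets that Hspa8 shares with the small nucleolar RNAs Snord14c and Snord14d, which lie in its introns, had differences of 0.00 and -0.0033. The first of them was 9.5, 10.30 and 10.19 in JAM-A-/- tumors and 10.11, 10.41 and 9.47 in JAM-A+/+ tumors, with its lowest values in tumors 5393 and 5333.

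Hsph1 encodes Hsp110, a large relative of Hsp70 that exchanges its nucleotide and helps it to dissolve aggregates. It was 10.05, 10.19 and 10.05 in JAM-A-/- tumors and 9.55, 9.66 and 9.68 in JAM-A+/+ tumors. All 3 JAM-A-/- tumors were higher than all 3 JAM-A+/+ tumors, tumor 5333 among them, and neither group spread over more than 0.14. The log2 fold change was 0.47, or 1.38-fold, with the smallest standard error of the 8 members (0.11, 95% interval 0.21 to 0.73, adjusted p = 0.269 from limma). It kept its side of the criteria without any of the 6 tumors, at 0.42 to 0.49, but lay below a fold of 1.3 with either quantile normalization (0.27, 95% interval 0.02 to 0.52 over the annotated probe sets).

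Dnajb1 encodes Hsp40, the J-domain protein that stimulates the ATPase of stress-inducible Hsp70. It was 8.60, 9.27 and 9.25 in JAM-A-/- tumors and 8.54, 8.52 and 8.78 in JAM-A+/+ tumors, again with tumor 5333 inside the JAM-A+/+ range and the other JAM-A-/- tumors above it. The log2 fold change was 0.43 (95% interval -0.03 to 0.89, adjusted p = 0.481 from limma), and 0.65 without tumor 5333 (0.33 to 0.97, adjusted p = 0.162). Leaving out tumor 5346, the highest on Dnajb1, gave 0.31 instead. Bag3 encodes a nucleotide exchange factor that links Hsp70 to small heat shock proteins and to autophagy of their clients. It was 8.11, 8.61 and 8.5 in JAM-A-/- tumors and 7.93, 8.13 and 8.02 in JAM-A+/+ tumors, so that only tumor 5333 overlapped with the JAM-A+/+ range. Its log2 fold change of 0.38 (95% interval 0.02 to 0.74, adjusted p = 0.444 from limma) is a fold of 1.301, just past the limit of 1.3. Leaving out any 1 of tumors 5346, 5347, 5369, 5370 and 5393 brought Bag3 below the criteria, with 0.28 without tumor 5346 and 0.33 to 0.43 without the others.

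Hsp90aa1 encodes the inducible cytosolic Hsp90, a chaperone of kinases and steroid receptors. It was 12.18, 12.43 and 12.43 in JAM-A-/- tumors and 12.09, 12.32 and 12.25 in JAM-A+/+ tumors. The groups overlapped and the log2 fold change was 0.13 (95% interval -0.17 to 0.42, adjusted p = 0.733 from limma), with 0.12 and 0.11 on its other probe sets and -0.04 with quantile normalization over the annotated probe sets.

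Hspb1 and Cryab encode small heat shock proteins, which hold unfolded proteins without using ATP and also protect actin and intermediate filaments. Hspb1 was 9.24, 9.98 and 9.32 in JAM-A-/- tumors and 9.39, 9.27 and 9.73 in JAM-A+/+ tumors. Tumor 5346 was the highest and tumor 5333 the lowest of all 6, and the other JAM-A-/- tumor lay inside the JAM-A+/+ range. The log2 fold change was 0.05 (95% interval -0.46 to 0.56, adjusted p = 0.949 from limma), and 0.06 on its other probe set. On the first probe set it changed sign with quantile normalization over the annotated probe sets (-0.13), without tumor 5346 (-0.18) and without tumor 5370 (-0.05). Cryab, which encodes alpha B-crystallin, was 7.98, 9.04 and 8.48 in JAM-A-/- tumors and 7.71, 8.54 and 8.39 in JAM-A+/+ tumors. The groups overlapped, with the highest value in tumor 5346 and the lowest in tumor 5369. The log2 fold change was 0.29 with the widest interval of the 8 members (-0.42 to 1.0, adjusted p = 0.746 from limma).

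**Figure D3:**
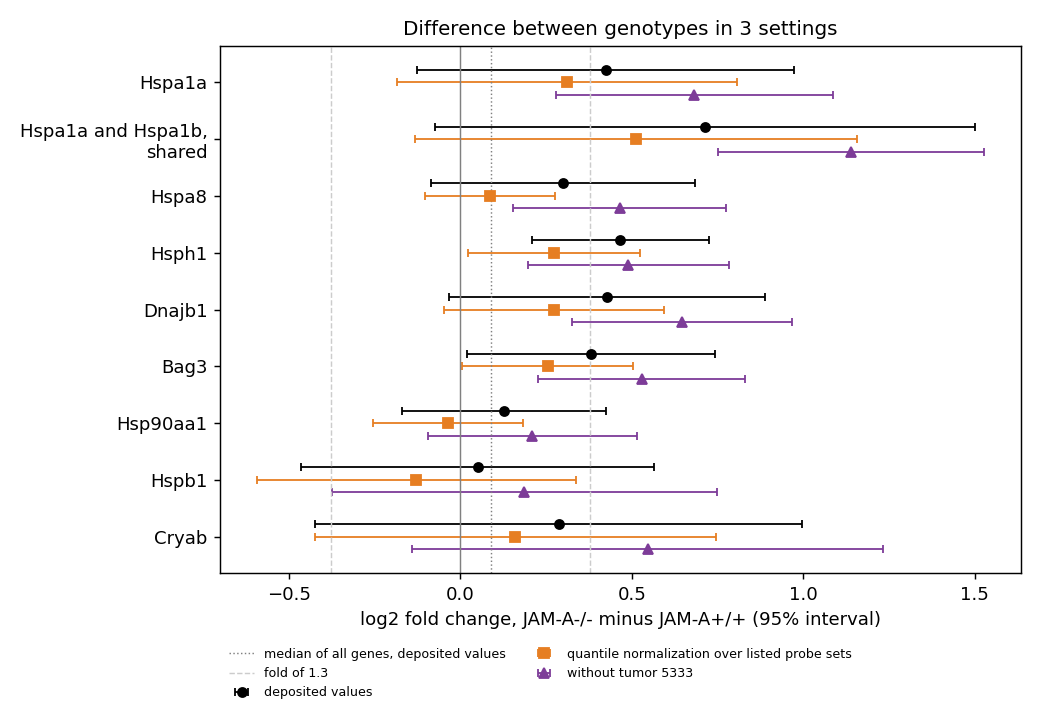
Log2 fold change, JAM-A-/- minus JAM-A+/+ (horizontal axis), of 8 members and of the probe set shared by Hspa1a and Hspa1b, with 95% intervals from limma as bars. Black circles are the deposited values, orange squares quantile normalization over the annotated probe sets and purple triangles the fit without tumor 5333, with dashed lines at a fold of 1.3 and a dotted line at the median of all genes. The intervals of Hsph1 and Bag3 lie above 0 in all 3 settings, and those of Hspa1a, Hspa8, Dnajb1 and the shared probe set do so only without tumor 5333. Tumor 5333 had the lowest mean of the members in its group, and the fits without each other tumor are not drawn.

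The likeness of single genes to the members was described by the root mean square difference of their log2 values, each centred on its own mean over the 6 tumors. Nearest to Hspa1a among all genes were Mill2, Pfkl, Maged2 and Cfap410, at 0.07 to 0.08. Of the other members Dnajb1 came next to it, at 0.15 as the 52nd gene, and Cryab was furthest, at 0.36 as the 10180th. Nearest to Hspa8 were 2510039O18Rik, Thra, Plbd2 and Yap1, at 0.02 to 0.03, and nearest to Cryab were Syne1, Fads1, Chst2 and Gpc3, at 0.10 to 0.12. The nearest other member was Bag3 for both, as the 1128th gene from Hspa8 and the 805th from Cryab.

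The genes around the members in the cytosolic chaperone network were followed through 6 lists of 43 genes, of which 42 were measured (not Hsp90ab1). Of these 42, 39 had a log2 fold change above 0, where 71.8% of all genes did. The criteria were met higher by 5 (4.73% of all genes) and lower by none (0.592%). None had an adjusted p under 0.05 in limma, and 9 had an unadjusted p below that limit, as did 8.16% of all genes. Their median was 0.23, or 0.06 with quantile normalization over the annotated probe sets, where 4 met the criteria higher (1.8% of all genes) and 1, the J-domain protein Dnajb6 at -0.38, lower (1.52% of all genes). Without tumor 5333, 13 of the 42 met them higher, as did 10.1% of all genes.

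Among J-domain proteins 2 of 8 met the criteria higher, where 4.73% of all genes met them higher and 0.592% lower. Dnaja4 was 7.67, 7.95 and 8.69 in JAM-A-/- tumors and 7.03, 7.46 and 7.60 in JAM-A+/+ tumors. Its difference was 0.74 on the log2 scale (95% interval 0.11 to 1.37, adjusted p = 0.418 from limma). Dnajc7, a co-chaperone that binds both Hsp70 and Hsp90, was 10.48, 10.43 and 10.62 in JAM-A-/- tumors and 9.88, 10.02 and 10.23 in JAM-A+/+ tumors, at 0.47 (0.16 to 0.77, adjusted p = 0.334) and at 0.25 and no longer meeting the criteria with quantile normalization over the annotated probe sets. Neither gene overlapped between the groups, where JAM-A-/- tumors were higher without overlap for 12.4% of all genes. Of 9 genes of the Hsp90 cycle, Fkbp5, an immunophilin of steroid receptor complexes, met the criteria. It was 9.40, 9.49 and 9.27 in JAM-A-/- tumors and 8.47, 9.01 and 8.94 in JAM-A+/+ tumors, at 0.58 (0.19 to 0.97, adjusted p = 0.338). Stip1, which hands clients from Hsp70 to Hsp90, had a difference of 0.38, just short of the fold limit.

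The 5 other small heat shock proteins lay at log2 fold changes of 0.0033 to 0.93. Of these, Hspb6 and Hspb8 met the criteria higher, as did 4.73% of all genes. Hspb6, known from muscle, was 7.47, 7.86 and 7.5 in JAM-A-/- tumors and 6.96, 7.26 and 6.92 in JAM-A+/+ tumors. It was higher without overlap, as were 12.4% of all genes, at a log2 fold change of 0.56 (95% interval 0.20 to 0.93, adjusted p = 0.331 from limma). Hspb8, the partner of Bag3, was 8.14, 8.52 and 7.52 in JAM-A-/- tumors and 6.42, 7.67 and 7.29 in JAM-A+/+ tumors, at 0.93 (0.11 to 1.76, adjusted p = 0.426), and did not meet the criteria without tumor 5333. On Hspb6 and Hspb8, as on Hsph1, tumor 5333 stood above all JAM-A+/+ tumors, as it did for 28.0% of all genes. On Hspa1a and Hspa8 it lay within their range. Hspb2, the neighbor of Cryab, was at 0.01.

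All 10 smooth muscle and myoepithelial markers had a log2 fold change above 0, where 71.8% of all genes did. Of the 10, 5 met the criteria higher (Acta2, Tagln, Cnn1, Myl9 and Des) and none lower. Over all genes 4.73% met them higher and 0.592% lower. The mean log2 value of the list was 7.52, 7.78 and 7.36 in JAM-A-/- tumors and 6.95, 7.26 and 7.21 in JAM-A+/+ tumors, while Krt5 and Krt14, keratins of the basal layer, were at 0.08 and 0.01. Of 10 skeletal muscle markers 3 met them higher (Acta1, Myh1 and Myh2) and none lower, with list means of 7.01, 7.82 and 7.46 in JAM-A-/- tumors and 6.77, 7.33 and 6.11 in JAM-A+/+ tumors. Adipocyte markers, none of 7 meeting the criteria, averaged 6.23, 7.0 and 7.2 in JAM-A-/- tumors and 5.59, 7.19 and 7.43 in JAM-A+/+ tumors. Of 3 measured Schwann cell and nerve markers S100b met the criteria higher, at 6.85, 8.54 and 7.92 in JAM-A-/- tumors and 6.83, 6.70 and 6.87 in JAM-A+/+ tumors. Sox10 and Mbp, the rest of that list, were at 0.12 and 0.0033, and at -0.10 and -0.08 with quantile normalization over the annotated probe sets. Sox10 stood at 9.60 to 10.33 over the tumors, against 6.71 to 6.95 for Mbp. Whether Sox10 came from nerve cells here was not tested. The list means were 7.72, 8.57 and 8.40 in JAM-A-/- tumors and 7.87, 7.82 and 7.91 in JAM-A+/+ tumors. Luminal epithelial markers, none of 8 meeting the criteria, averaged 11.26, 11.76 and 11.86 in JAM-A-/- tumors and 11.32, 11.58 and 11.60 in JAM-A+/+ tumors. With quantile normalization over the annotated probe sets the luminal median was -0.03 and 1 marker met the criteria lower, as did 1.52% of all genes. The part of these cell types in the values of the chaperones was not tested.

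Among the remaining co-chaperones and factors no gene met the criteria. Of 7 relatives of Hsp70 and Hsp110, Hspa4 and Hspa12a were at 0.34 and 0.22. Of 9 nucleotide exchange and ubiquitin co-chaperones, St13 and Hspbp1 were at 0.32 and 0.34. Of 4 heat shock factors and regulators, Hsbp1, which binds Hsf1, was at 0.37 and Hsf5 at -0.03, while Hsf2 was at 0.02.

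**Figure D4:**
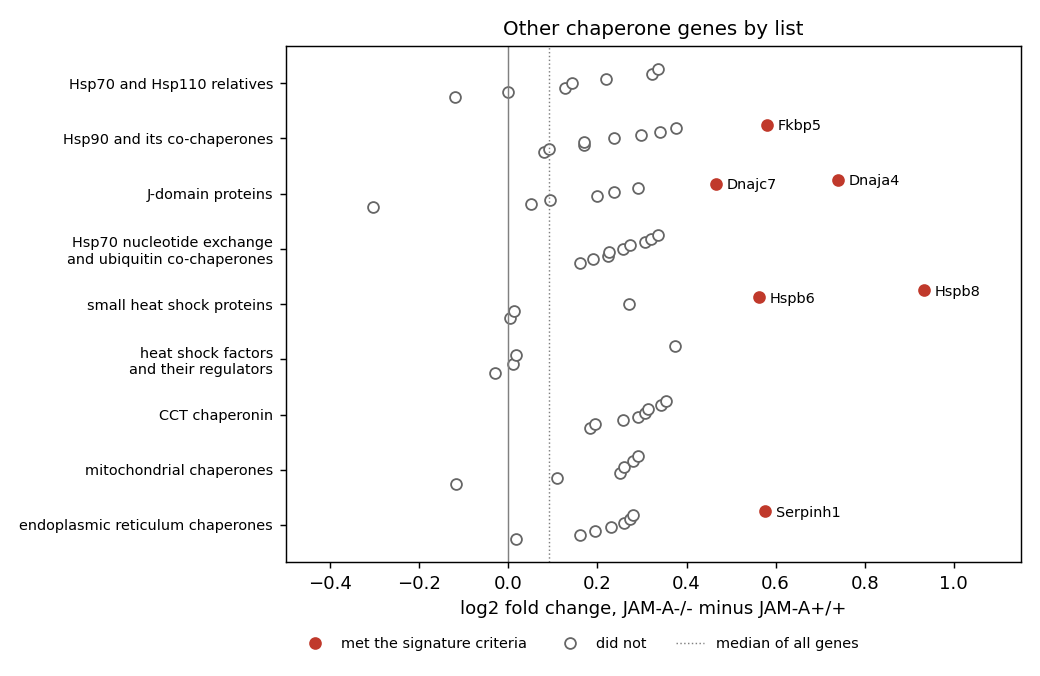
Log2 fold change, JAM-A-/- minus JAM-A+/+ (horizontal axis), of other chaperone genes by list (vertical axis), 1 circle per gene. Filled red circles met the signature criteria and open circles did not, and the dotted line is the median of all genes at 0.09. Most genes lie between 0 and 0.4, and the 6 named ones lie at 0.47 to 0.93.

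Immediate early genes, which like the inducible Hsp70 respond quickly to stress of cells or tissue, were followed as well. Of 12, 10 lay above 0, as did 71.8% of all genes. The median of the 12 was 0.22 (0.11 with quantile normalization over the annotated probe sets). Zfp36 met the criteria higher (4.73% of all genes) at 0.43, though not with that normalization, and none met them lower (0.592%). The others included Nr4a1 at 0.73, Jun at 0.45, Atf3 at 0.43, Fos at 0.04 and Dusp1 at -0.16. Their mean log2 value was 8.04, 8.48 and 8.54 in JAM-A-/- tumors and 7.89, 8.05 and 8.47 in JAM-A+/+ tumors. Tumor 5333 was thus lower than the other JAM-A-/- tumors on this list too, while JAM-A+/+ tumor 5393 was close to these.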

How the data were processed

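Expression was measured in 6 tumors, 1 array each, grouped by title and genotype. The tissue label of tumor 5347 does not mention the missing JAM-A, which its title and genotype do. The authors deposited RMA expression on the log2 scale from Affymetrix Expression Console 1.1, at 2 decimals, with settings and filters not stated in the sources read. Precision is limited by 3 arrays per group, and there is no sequencing depth to give. The study's methods name no test for the arrays.

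The values were fitted here with limma 3.58.1 (lmFit and eBayes, R 4.3.3, no covariate) over 35557 probe sets and adjusted over all of them (Benjamini-Hochberg). The fit was tested on simulated data with known changes. Of the probe sets, 21789 were paired with 1 gene symbol, 1621 with several, and 12147 were not listed. Symbols were updated through gene identifiers to RefSeq (GRCm38.p6), where 21698 matched. Sequences came from RefSeq promoter windows of that build. Hspa8, Hsp90aa1 and Hspb1 each have more than 1 probe set, and probes shared with copies of these or other genes could not be checked.

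Members, lists and alternatives were chosen with earlier results of these data known. Genes named are F11r, the members, list genes that met the criteria, otherwise the 2 of smallest p in each chaperone list, and the 4 genes nearest to Hspa1a, Cryab and Hspa8. Hspa1a took the place of Hspa1b, which the rule had named but which had no probe set of its own. Other genes named (Dnajb6, Stip1, Hspb2, Hsf2, Krt5, Krt14, Krt18, Sox10, Mbp, Nr4a1, Jun, Atf3, Fos and Dusp1, and in the closing section Hspe1, Hspd1, Hspa5 and Hsp90b1) were added after their values were seen.

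Alternatives were array weights, a robust prior with a trend on intensity, the spread of each probe set alone, 2 quantile normalizations, median centring, leaving out the 40% dimmest probe sets, the second probe set of a gene, a fold of 1.5, and leaving out each tumor.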

Additional observations from a re-analysis of the deposited data

How the results depend on the processing

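Over the alternatives, the count of members meeting the criteria (2) was 4 with array weights, 1 with the spread of each probe set alone, 0 with quantile normalization over all or over the annotated probe sets, 0 with the limit raised to 1.5-fold, and 1 to 5 when 1 tumor was left out (5 without tumor 5333, 1 without any other). Their median (0.34) was 0.46 with array weights, 0.21 with quantile normalization over the annotated probe sets, and 0.23 (without tumor 5346) to 0.51 (without tumor 5333) when 1 tumor was left out. No member passed the adjustment in any setting run. The count of related chaperone genes (5) was 9 with median centring, 3 with the spread of each probe set alone, 2 with the limit raised to 1.5-fold, and 3 (without tumor 5369) to 13 (without tumor 5333) when 1 tumor was left out. Of 112 single-member values, 90 kept their direction and their side of the criteria, 10 lost the criteria, 6 gained them and 6 changed sign. Those that changed sign were Hsp90aa1, at -0.0675 with quantile normalization over all probe sets and -0.0356 over the annotated ones, and Hspb1, at -0.12 and -0.13 in the same settings, at -0.05 without tumor 5370 and at -0.18 without tumor 5346, the lowest of its values without 1 tumor, which reached 0.19 without tumor 5333. The causes were not tested. Leaving out a tumor leaves 2 arrays in its group, fitted with the spread pooled over both groups. No paired analysis was possible because the tumor numbers are not shared between the genotypes.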

Other observations

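Other chaperone systems had medians of 0.25 to 0.30 with the deposited values, and of 0.05 to 0.10 with quantile normalization over the annotated probe sets. All 8 subunits of the cytosolic CCT chaperonin, which folds actin and tubulin, lay above 0, as did 71.8% of all genes. None met the criteria, where 4.73% of all genes met them higher and 0.592% lower. The log2 fold changes of the subunits were 0.18 to 0.35, with Cct5 at 0.35 and Cct2 at 0.34. Their median was 0.30, against 0.09 over all genes, and 0.10 with quantile normalization over the annotated probe sets. Of 6 mitochondrial chaperones 5 lay above 0, as did 71.8% of all genes, and none met the criteria. The median of these 6 was 0.26, and 0.07 with quantile normalization over the annotated probe sets. Hspa9, the mitochondrial Hsp70, was at 0.28 and Trap1, the mitochondrial Hsp90, at 0.26. The partners Hspd1 and Hspe1, which form 1 chaperonin and whose genes share a promoter region, had values of 0.29 and -0.12. Whether their probe sets read these genes or copies elsewhere was not checked, so the values need not reflect that promoter.

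Of 8 chaperones of the endoplasmic reticulum, 1 met the criteria higher (4.73% of all genes), Serpinh1 (Hsp47), the collagen chaperone. The list's median was 0.25, and 0.05 with that normalization. Serpinh1 was 8.59, 9.39 and 9.04 in JAM-A-/- tumors and 8.15, 8.55 and 8.59 in JAM-A+/+ tumors. Its difference was 0.58 on the log2 scale (95% interval 0.06 to 1.09, adjusted p = 0.429 from limma). The main chaperones of that compartment, Hspa5 and Hsp90b1, were at 0.19 and 0.02. The mean log2 value of this list was 10.65, 11.32 and 11.16 in JAM-A-/- tumors and 10.60, 10.90 and 10.87 in JAM-A+/+ tumors, with tumor 5333 below 2 of the 3 JAM-A+/+ tumors. Without tumor 5333, 7 of the 8 met the criteria higher, where 10.1% of all genes did. With all 6 tumors none had an adjusted p under 0.05 in limma.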
